A study of Mus musculus with 2 samples.

Results

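The mouse miRNA genes Mir6896 to Mir7094 were examined in small RNA libraries of the embryonic limb. They were chosen by symbol alone, as every row from Mir6896 to Mir7094, with or without a letter or copy suffix. This gave 178 of the 1973 rows of the count tables, covering 176 of the 199 numbers in the range, and the remaining 23 numbers were not analysed here. Limbs came from healthy B6NCrl mouse embryos at 15.5 days of gestation, with males and females pooled, no mutation or treatment named in the labels, and a size class below 30 nt. The only group held 2 biological replicates, from 78 embryos in replicate 1 and 62 in replicate 2, so that each value is an average over a pool of limbs and all their cell types. No second condition was part of the series, and levels were therefore described and compared between replicates.

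The sense strand of all miRNA genes held 4263630 counts in replicate 1 and 5151214 in replicate 2. Levels are given as CPM, counts per 1000000 of these totals, so that 1 count stood for 0.235 CPM in replicate 1 and 0.194 CPM in replicate 2. A count of 0 was given a one-sided limit of 3 counts, or 0.704 and 0.582 CPM, while the intervals of counted genes below are two-sided. The limb markers Mir203 of epidermis, Mir140 of cartilage, Mir196b and Mir10b of the Hox clusters and Mir206 of skeletal muscle had 4787 CPM or more in each library. Of markers of other tissues, Mir122 of liver lay between 57.5 and 86.2 CPM, Mir302a of pluripotent cells between 8.74 and 9.85 CPM, and the 3 copies of Mir124a, a brain miRNA, had 0 counts. The Mir124a and Mir302a precursors share sequence with other miRNA genes, and reads with several alignments were listed on a line of their own.

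As background, a mirtron is a short intron that folds into a hairpin. The spliceosome cuts it out, the lariat is opened by the debranching enzyme, and the hairpin goes to Dicer without the usual first cut by the Drosha complex. In tailed mirtrons only one end of the hairpin is a splice site, and the stretch between the other end and the far splice site is trimmed away by exonucleases. An intron usually begins with GU and ends with a pyrimidine-rich stretch followed by AG, and these letters become part of the small RNA. In mammals mirtrons are known as numerous, weakly conserved and mostly low in abundance.

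The precursors of the 3 most counted genes show this layout. In RefSeq on GRCm38.p6 (the mm10 assembly), the Mir6944 hairpin is 96 bases long and is the entire intron, with GU at its start and AG at its end. The Mir7007 and Mir7083 hairpins are only the last 70 and 60 bases of longer introns, and both end in AG. Capitals mark the mature arms named in RefSeq.
Mir6944 precursor: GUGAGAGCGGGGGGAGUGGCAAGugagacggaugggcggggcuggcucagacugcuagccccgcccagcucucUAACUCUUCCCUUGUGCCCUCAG
Mir7007 precursor: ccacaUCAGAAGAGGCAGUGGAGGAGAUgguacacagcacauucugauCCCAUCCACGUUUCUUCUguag
Mir7083 precursor: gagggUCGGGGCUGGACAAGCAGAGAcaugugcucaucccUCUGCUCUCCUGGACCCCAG

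Mature arms of leading genes are shown next because the count tables report genes and not arms. The list holds no arm of Mir6951 or Mir6971, and only the 5p arm of Mir6923. Capitals mark the seed, bases 2 to 8, which pairs with target messenger RNAs.
miR-6944-5p: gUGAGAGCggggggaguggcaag
miR-6944-3p: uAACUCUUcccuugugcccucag
miR-7007-5p: uCAGAAGAggcaguggaggagau
miR-7007-3p: cCCAUCCAcguuucuucu
miR-7083-5p: uCGGGGCUggacaagcagaga
miR-7083-3p: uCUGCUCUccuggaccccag
miR-6900-5p: uGCCAGGAgaagccuagagccguc
miR-6900-3p: uGGUGAUGggcucucuuguag
miR-6923-5p: gUGAGGGCaggaggauuggggugu
miR-6897-5p: uGGGGGCAgugucacacgcuguu
miR-6897-3p: cGGUCUGUguucuucccccag
miR-7063-5p: aUGAGAGGugcaggcugagcaca
miR-7063-3p: uGCUCUCUgccccucuuaag
miR-7025-5p: cGUGAGCUgaagcugguggcuccc
miR-7025-3p: cAGCACAAcuccagcucaccag
No seed occurs more than once among these arms. The seed of miR-6897-3p also occurs in Mir5106 and that of miR-7063-3p in Mir6973b, and the other seeds printed here are in no other gene of the count tables that has a RefSeq sequence. Across the block, 163 of the 178 genes matched RefSeq with 312 mature sequences, which carried 287 different seeds, and only 21 seeds occurred in more than 1 gene of the block.

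Most of the genes had some counts and almost none had many. At least 1 sense count in either replicate was found for 124 of the 178 genes (69.7%), against 35.2% of all rows of the tables and 60.3% of the 864 other rows named Mir and a number. At least 10 counts in both replicates, the bar for calling a gene detected here, were reached by 3 genes (1.69%), against 17.2% of all rows and 37.4% of the other numbered rows. Replicate 1 alone had 6 genes of the block at this bar and replicate 2 alone had 4. At least 1 count in both replicates was found for 77 genes (43.3%), above the 28.3% of all rows and below the 51.4% of the other numbered rows. These shares describe the 2 libraries. Reads with several alignments were listed on a line of their own. A stretch of 20 bases was shared with another miRNA gene by 3 of the 178 genes and by 920 of the 1716 other rows with a symbol. The part of shared sequence in these percentages was not tested. In a bulk tissue, a small RNA made by few cells and one made at a low level by many cannot be told apart.

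The genes thus made up a large part of the low end of the table. Of the 354 rows that were counted but did not reach 10 counts in both replicates, 121 (34.2%) belonged to the block. These 121 rows were 68.0% of the block, while the corresponding 233 rows were 13.0% of all other rows. Among the 340 rows that passed the bar, the block held 0.882%. In the plot of rows reaching each minimum, the block lay below the other numbered rows at every minimum. Its order against all other rows changed with the minimum. At 1 count in both replicates the block lay above all other rows (43.3% against 26.9%), at 2 counts both were close (23.6% against 23.9%), and from 3 counts on the block was lower (12.9% against 22.5%). At 100 counts in both replicates 0 genes of the block were left, against 13.8% of all other rows.

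**Figure D1:**
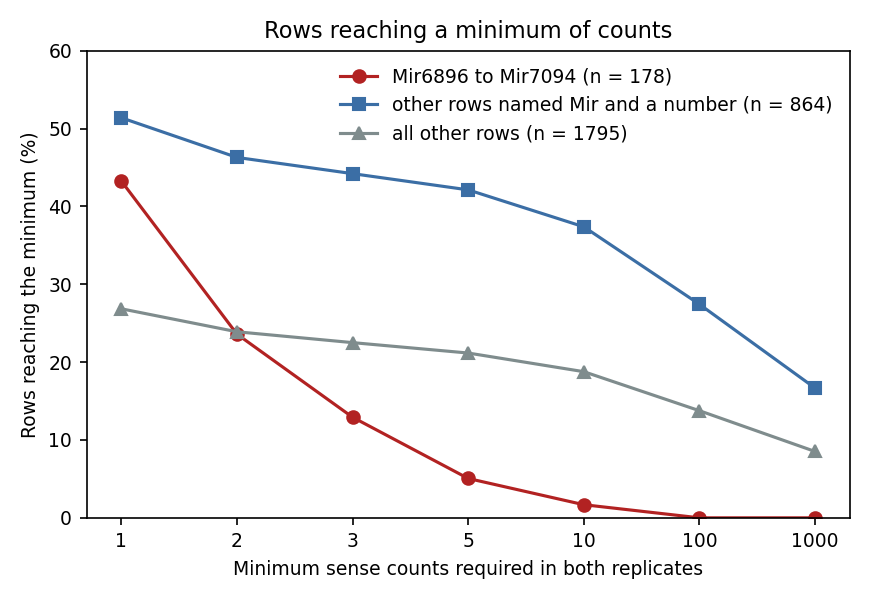
Percentage of rows (vertical axis) that reached a minimum of sense counts in both replicates (horizontal axis, steps from 1 to 1000) for Mir6896 to Mir7094, other rows named Mir and a number, and all other rows. The block fell from 43.3% at 1 count to 1.69% at 10 counts, while the other numbered rows fell from 51.4% to 37.4%.

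By number, the share of rows with any count varied between stretches of the numbering. Rows Mir1 to Mir499, the earliest named miRNAs, were counted in 271 of 341 rows (79.5%), with 66.0% of rows detected. In Mir6000 to Mir6895, directly before the block, 11 of 100 rows had a count and 4 were detected. In Mir7095 to Mir8999, directly after it, 46 of 95 rows (48.4%) had a count and 7 were detected. Among counted rows only, the median level was 0.332 CPM in the block, 0.342 CPM in the rows after it, and 163 CPM in Mir1 to Mir499. The median over all 178 genes was 0.214 CPM, the value of 1 count in each library.

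Together the genes held 385 sense counts in replicate 1 and 407 in replicate 2. This was 90.3 CPM in replicate 1 (Wilson 95% interval 81.7 to 99.8) and 79.0 CPM in replicate 2 (71.7 to 87.1), with a mean of 84.7 ± 7.98 CPM (SD, n = 2) or 0.00847% of the sense counts. The intervals of the libraries overlap, and they cover counting error only. Mir6944 alone gave 22.7% ± 1.97 of these counts, and the 10 most counted genes gave 45.4% ± 3.03 (SD, n = 2). Without Mir6944 the sum was 65.5 CPM. The antisense strand of the 178 genes had 0 counts in both replicates, and 58 of the 1795 other rows had antisense counts. Such counts were rare beside sense counts, with 29 against 288966 for Mir203 in replicate 1. At the 792 sense counts of the block, its antisense 0 cannot be read as a trait of these genes.

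**Figure D2:**
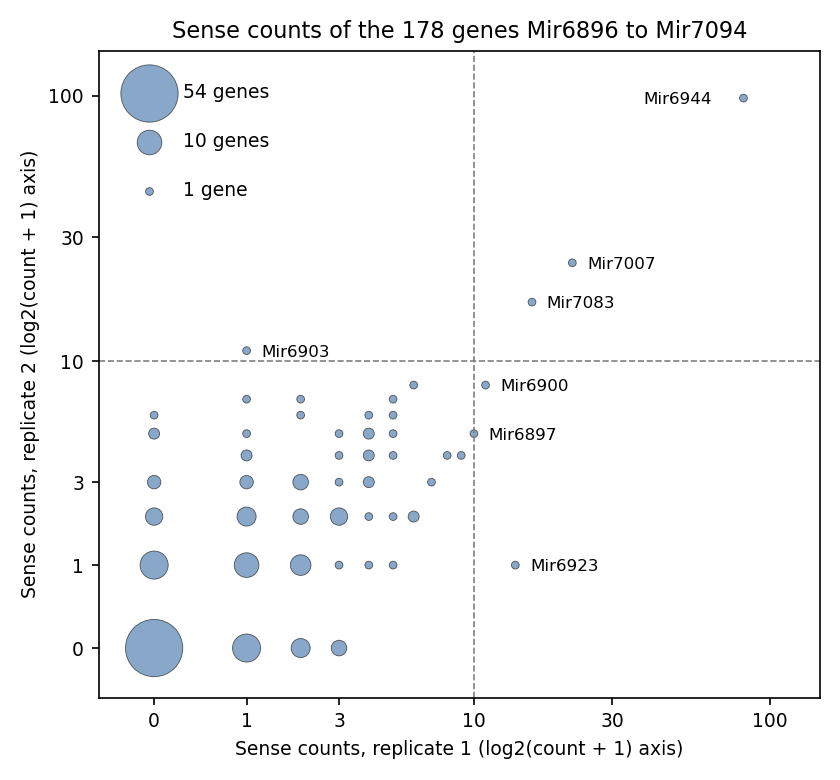
Sense counts of each of the 178 genes in replicate 1 (horizontal axis) and replicate 2 (vertical axis), both on a log2(count + 1) axis, with the circle area giving the number of genes at that pair of counts and dashed lines at 10 counts. The largest circle holds the 54 genes at 0 in both, and Mir6944, Mir7007 and Mir7083 are the 3 genes above 10 in both.

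Between the libraries, which genes of the block were counted overlapped only in part. In replicate 1, 100 genes had a count and 78 had none. In replicate 2, 101 had a count and 77 had none. Counts in both were found for 77 genes, in replicate 1 only for 23 and in replicate 2 only for 24, and 54 had none in either. Over all 1973 rows, 559 had counts in both, 64 in replicate 1 only, 71 in replicate 2 only, and 1279 had none. At 3 counts or fewer, the most that an observed 0 allows, stood 151 genes in replicate 1 and 149 in replicate 2, so that most genes of the block lay at or below the limit set for a count of 0.

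Mir6944 was the most counted gene of the block, with 82 counts in replicate 1 and 98 in replicate 2. Its gene (ENSMUSG00000098341.1) covers 55477681 to 55477776 on chromosome 13 of mm10, minus strand, and fills an intron of Dbn1, which encodes the actin-binding protein drebrin. Its level was 19.2 CPM in replicate 1 (exact Poisson 95% interval 15.3 to 23.9) and 19.0 CPM in replicate 2 (15.4 to 23.2), with a mean of 19.1 ± 0.147 CPM (SD, n = 2). These values agree within counting error. Mir6944 lay above every other gene of the block in both libraries, and its intervals overlapped with none of theirs.

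Mir7007 (ENSMUSG00000099105.1, minus strand of chromosome 3, 20222290 to 20222359) had 22 and 24 counts in replicates 1 and 2. It ends an intron of 942 bases in Cpa3, which encodes carboxypeptidase A3, a protease of mast cell granules. Its level was 5.16 CPM in replicate 1 and 4.66 CPM in replicate 2, a mean of 4.91 ± 0.354 CPM (SD, n = 2). Mir7083 (ENSMUSG00000098473.1, minus strand of chromosome 9, 21809941 to 21810000) had 16 and 17 counts, a mean of 3.53 ± 0.320 CPM. It ends an intron of 1833 bases in Dock6. The exact Poisson intervals of Mir7007 (3.23 to 7.81 CPM in replicate 1) and Mir7083 (2.14 to 6.09 CPM) overlapped, so their order was not resolved.

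Just below the bar was Mir6900, with 11 and 8 counts (2.07 ± 0.726 CPM, SD, n = 2), at the end of an intron of 2898 bases in Ndufa10, a subunit of mitochondrial complex I. Its place is chromosome 1, 92464483 to 92464542, on the minus strand. Mir7083 was the gene just above the bar. Mir6897 (chromosome 1, 36144252 to 36144313) had 10 and 5 counts and a mean of 1.66 ± 0.972 CPM, and ends an intron of Uggt1, the folding sensor of glycoproteins in the endoplasmic reticulum.

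The other leading genes, apart from Mir6923, which is described below, had between 4 and 9 counts in each library. Mir6951 (chromosome 15, 38490473 to 38490547), in an intron of the antizyme inhibitor gene Azin1, had 6 and 8 counts. Mir6971 (chromosome 17, 34841809 to 34841871), in an intron of Skiv2l, the gene of the RNA helicase of the Ski complex, had 9 and 4. Mir7063 (chromosome 7, 141620701 to 141620791), in Ap2a2, a subunit gene of the AP-2 clathrin adaptor, had 8 and 4. Mir7025 (chromosome 5, 75176831 to 75176904) overlaps an exon of Pdgfra, the receptor for platelet-derived growth factor on mesenchymal cells, and had 5 and 7. Mir6971 and Mir7063 had more counts in replicate 1, and Mir6951 and Mir7025 in replicate 2. None of these genes was called different between replicates with every counted row tested. Their means lay between 1.27 and 1.48 CPM, and the Poisson intervals of these genes overlapped with one another in both libraries.

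At least 3 counts in both libraries were found for 23 genes. Some of those not named above are given here, chosen after their values were seen. Among them Mir6958 in Dennd6b had 5 and 5 counts, and Mir7019 in Pink1, a mitochondrial kinase gene, had 5 and 4. Mir7018 in Hspg2, the gene of the basement membrane proteoglycan perlecan, had 4 and 5. Mir6935 in Actg1, the gene of cytoplasmic gamma-actin, had 3 and 5, and Mir7075 in Terf2, a telomere-binding protein gene, had 4 and 4. Mir6907 in Rrp1 had 7 and 3.

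**Figure D3:**
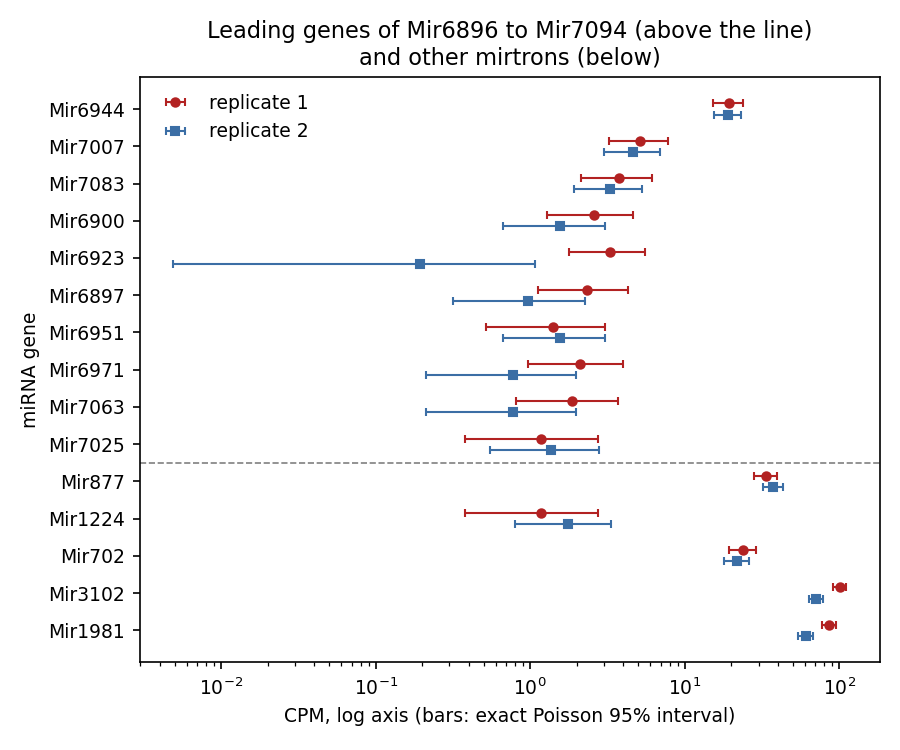
CPM (horizontal log axis) of the 10 leading genes of Mir6896 to Mir7094 and, below the dashed line, of 5 other mirtron genes, with replicate 1 as circles, replicate 2 as squares and exact Poisson 95% intervals as bars. Mir6944 lies near 19 CPM in both replicates, and Mir6923 lies at 3.28 CPM in replicate 1 and 0.194 CPM in replicate 2.

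None of the detected genes was called different between the replicate pools, and among genes with fewer counts 2 were. For the 3 detected genes an exact two-sided binomial test on the counts, adjusted by Benjamini-Hochberg over the 340 rows tested, called 0 as different, with 0 at an unadjusted p under 0.05 and 0 called with edgeR or DESeq2 scaling. The background was 50.9% of the rows called. The ratio of replicate 2 to replicate 1 was 0.989 for Mir6944, 0.903 for Mir7007 and 0.879 for Mir7083, beside a median of 1.01 over all 340 rows. The 95% counting interval of the ratio was 0.730 to 1.34 for Mir6944 and 0.418 to 1.86 for Mir7083. Any ratio inside these limits is compatible with the counts, so differences of that size are not excluded. The test sets 2 libraries against counting noise and does not compare conditions.

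With every row that had a count tested, 2 of the 124 counted genes of the block passed, beside a background of 24.6% of 694 rows. The counted genes of the block had a median of 3 counts over both libraries. Mir6988, named after its values were seen, did not pass with 0 and 6 counts (adjusted p = 0.129, exact binomial test). Most genes of the block thus had too few counts to pass, and the share that passed cannot be read against the background. Mir6923 (chromosome 11, plus strand, 67099804 to 67099875) had 14 counts in replicate 1 and 1 in replicate 2. It fills an intron of 72 bases in Myh3, the gene of the embryonic myosin heavy chain of skeletal muscle. It was 16.9-fold higher in replicate 1, with a 95% counting interval of 2.57 to 715 (adjusted p = 0.00126, exact binomial test). Mir206, a miRNA of skeletal muscle, was also higher in replicate 1, with 11050 CPM against 4787 CPM, and its part in the Mir6923 difference was not tested. In the other direction Mir6903, which overlaps an exon of the calcium pump gene Atp2b4, had 1 and 11 counts. It was 9.10-fold higher in replicate 2, with an interval of 1.32 to 392 (adjusted p = 0.0366, exact binomial test). Mir6903 was named after its values were seen.

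By position, the block was made of hairpins at the end of introns, and not mainly of short introns. The end of a precursor was taken as a splice site when it lay within 5 bases of the end of a same-strand GENCODE intron. Of the 178 genes, 151 (84.8%) had a splice site at the 3′ end only, 15 (8.43%) at both ends, 4 (2.25%) at the 5′ end only, and 8 were placed otherwise. In 165 genes (92.7%) the last base of the precursor was the last base of the intron. Only 27 of the 1795 other rows (1.50%) had a splice site at the 3′ end only and 8 (0.446%) at both. The name mirtron in its strict sense, a hairpin made of an entire intron, applied to 14 genes at an exact match. Mir7082 joined them within the 5 bases allowed, but reached into an exon. The layout of the 151 is that of hairpins with a 5′ tail.

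Host introns were of all lengths. Their median was 412 bases, with a range of 66 to 36269 bases over the 171 genes with a host intron, and 170 of these had a protein-coding host. At most 200 bases were found for 65 genes and more than 1000 for 49. In the 151 genes with a splice site at the 3′ end only, a median of 421 bases lay between the 5′ splice site and the hairpin (interquartile range 73 to 1134). In the 15 genes with both ends at splice sites the introns were 67 to 137 bases long. For 28 genes an exon of another annotated transcript also covered the hairpin, so the same bases can be retained in a spliced RNA.

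The exceptions are few enough to name. A splice site at the 5′ end only was found for Mir6936 in Sirt7, Mir6927 in Mllt6, Mir6977 in Ptprs and Mir6973b in Gfra4, which had 5 and 2, 0 and 1, 1 and 0, and 0 and 0 counts in replicates 1 and 2. Mir7036b lay inside an intron of Add1 and had 3 and 2 counts. An exon overlapped Mir6901, Mir6903, Mir6904, Mir6914, Mir6950, Mir7025 and Mir7029 by more than the 5 bases allowed. Their counts ran from 0 and 0 for Mir6904 to 1 and 11 for Mir6903. These genes were named for their position, after their values were seen.

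**Figure D4:**
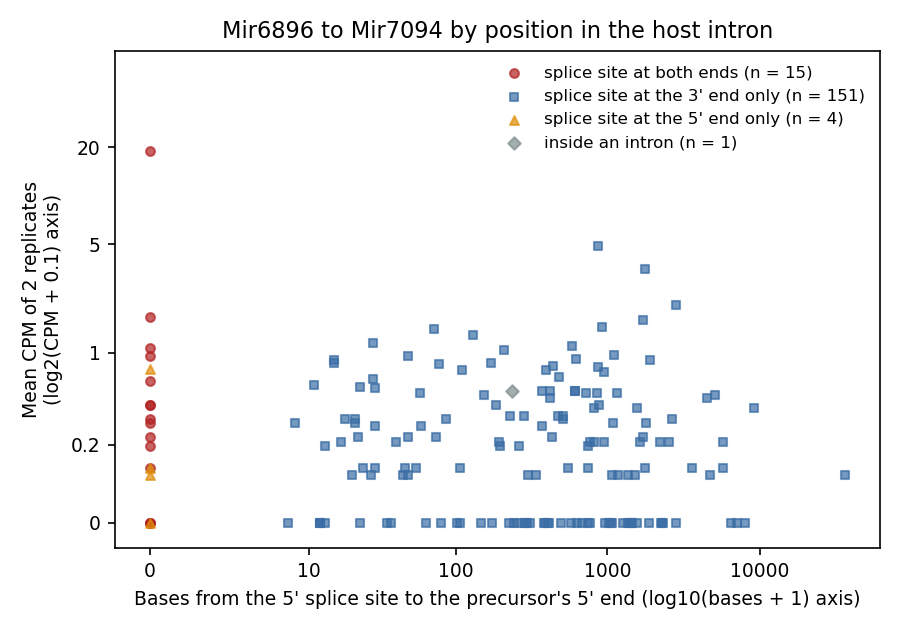
Mean CPM of 2 replicates (vertical axis, log2(CPM + 0.1)) against the distance from the 5′ splice site to the hairpin (horizontal axis, log10(bases + 1)) for the 171 genes with a host intron, with symbols for the class of position. Mir6944, with a distance of 0, stands alone at the top, and genes with 0 CPM occur at short and long distances.

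Counts were spread over all classes of position. Of the 15 genes with a splice site at both ends 12 had a count (80.0%), and of the 151 with the 3′ end only 102 had one (67.5%). Per gene, the first class had 7.87 counts in replicate 1 and 8.07 in replicate 2, and the second class 1.62 and 1.72. This difference rested largely on Mir6944, since the 14 others with both ends at splice sites had 2.57 and 1.64 counts per gene. In replicate 1 they stayed above the second class, with 14 counts from Mir6923 alone, and in replicate 2 they lay slightly below it. The most counted genes of the second class were not left out. Among the genes with the 3′ end only, introns of at most 200 bases gave 1.46 counts per gene in both replicates (46 genes), and longer introns gave 1.70 and 1.83 (105 genes). These are descriptions over genes, which are not replicates.

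Hairpins with and without counts had similar medians of sequence composition and folding. The median GC content was 57.5% for the 54 genes without a count, 57.6% for the 75 genes with 1 to 4 counts over both libraries and 58.0% for the 49 genes with 5 or more. The minimum free energy of folding per base was -0.40, -0.41 and -0.39 kcal/mol in the same order, and the median precursor length 64.5, 67.0 and 67.0 bases. As a whole the block was richer in GC than the other rows, with a median of 57.8% (interquartile range 53.3 to 62.8) against 50.0% (42.3 to 57.3) in the 1716 other rows with a symbol. Its precursors were shorter, with a median of 66.0 against 94.0 bases, and its folding energy per base of -0.40 lay near the -0.37 of the other rows. In the 864 other rows named Mir and a number the medians were 50.0% GC, 85.0 bases and -0.42 kcal/mol per base. That energy was slightly lower than in the block, so the direction of this small difference depended on the rows compared. The 27 other rows with a splice site at the 3′ end only had medians of 56.25% GC, 64.0 bases and -0.39 kcal/mol per base. The 8 other rows with both ends at splice sites had 60.6% GC, 85.0 bases and -0.49. High GC was thus shared with the rows of like position and not particular to the block.

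The mature arms carried the letters of the intron ends. Of 155 mature 3p arms of the block in RefSeq, 121 (78.1%) ended in AG, against 53 of 467 (11.3%) in the other rows of the tables. Of 151 such arms with a host intron, 115 ended on its last base. Pyrimidines made up a median of 71.4% of the 3p arms (interquartile range 65.2 to 77.3), against 54.5% (45.5 to 61.9) in other rows. The 5p arms were the reverse, with 31.8% pyrimidines against 50.0% and 45.5% G against 27.3%. The letters GU stood at the start of 15 of 157 5p arms (9.55%), against 19 of 461 (4.12%) in other rows. Of the 13 5p arms from genes with both ends at splice sites, 11 began on the first base of the intron and 7 with GUGAG, as in miR-6944-5p and miR-6923-5p shown above. These are annotated sequences, and which arm the counted reads came from was not analysed here.

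**Figure D5:**
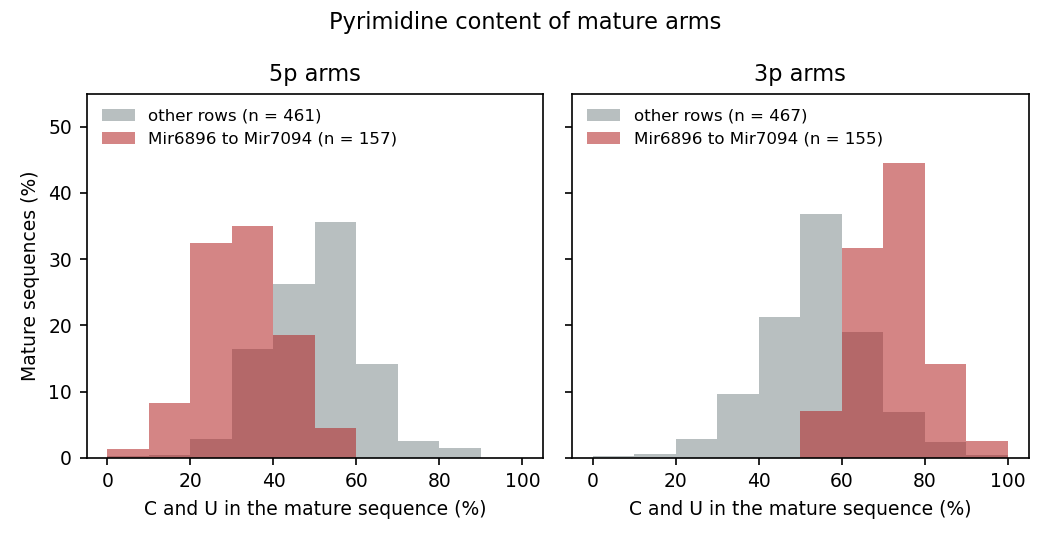
Distribution of the percentage of C and U (horizontal axis, bins of 10 percentage points) in RefSeq mature 5p and 3p arms, as a percentage of sequences (vertical axis), for Mir6896 to Mir7094 and for other rows of the count tables. The 5p arms of the block lie to the left of the others (median 31.8% against 50.0%) and its 3p arms to the right (71.4% against 54.5%).

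Few of the precursors have a copy among the miRNA genes. Only 3 of the 178 precursors (Mir6970, Mir7065 and Mir7094-2) share a stretch of 20 bases with another miRNA gene, against 920 of the 1716 other rows with a symbol. Mir6970 had 2 and 0 counts, and the other two had none. For the remaining 175, copies elsewhere in the genome were not analysed here.

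The rows outside the block nearest to its 15 genes with both ends at splice sites were other hairpins of this layout. Of 8 such rows, 7 had a count and 3 were detected. Mir3102 in Arhgef17 had 429 and 365 counts, 85.7 ± 21.0 CPM (SD, n = 2), Mir1981 in Marc2 had 366 and 313 counts, 73.3 ± 17.7 CPM, and Mir877 in Abcf1 had 142 and 192 counts, 35.3 ± 2.81 CPM. All 3 lay above Mir6944 in both libraries. Mir1224 in Vwa5b2, a known mirtron, had 5 and 9 counts, within the range of the leading genes of the block. Mir702 in Plod3, also a known mirtron, overlaps an exon by more than 5 bases and had 101 and 112 counts, 22.7 ± 1.38 CPM. Its Poisson intervals (19.3 to 28.8 and 17.9 to 26.2 CPM) overlapped with those of Mir6944. A splice site at the 3′ end only, the layout of most of the block, was found for 27 other rows. Of these, 16 (59.3%) had a count and 3 were detected, beside 67.5% and 2 of the 151 in the block. The most counted of the 27 held 45878 of their 46069 counts over both libraries, a mean of 4923 CPM. Their median was 1 count over both libraries, beside 2 for the 151.

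In the same host gene, pairs of hairpins had few counts. Pairs of genes of the block lie in Arap3, Cmip, Skiv2l and Srebf1. In Skiv2l Mir6971 had 9 and 4 counts, while Mir6970, which fills another intron of it, had 2 and 0. In Srebf1, a regulator gene of lipid synthesis, Mir6921 had 1 and 1 counts and Mir6922 had 2 and 0. In Arap3 Mir6981 had 1 and 0 counts and Mir6980 had 2 and 0. In Cmip Mir7077 had 0 and 2 counts and Mir7078 had none. Host messenger RNA was not measured, so levels of hosts and hairpins could not be set side by side.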

How the data were processed

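The authors deposited raw whole-number counts per miRNA gene for each library. Per the deposited README the assembly was mm10 and the genome annotation M4. For the aligner, the counter and read trimming, nothing was given in the sources consulted. Of the 3 count columns the first is the sum of the other 2 in all 1973 rows, so these were taken as unstranded, sense and antisense counts. Reads with several alignments, 29.4% and 29.7% of all reads, had their own summary line. Symbols, positions and introns came from GENCODE M21 on GRCm38, matched by identifier for 1894 rows. The 79 others stayed among the other rows. Sequences came from RefSeq (GRCm38.p6).

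CPM used the sense totals. Intervals are Wilson or exact Poisson at 95%, and cover counting error only, since molecular identifiers were not named. Folding used RNAfold 2.7.2. Replicates were compared with an exact conditional binomial test (scipy 1.17.1, Python 3.11.15), with Benjamini-Hochberg adjustment and a threshold of 0.05. The test was tried on simulated data with counting noise only, made from rows with at least 10 counts in both replicates. Calls made without this minimum were not covered by it. With 1 group no edgeR quasi-likelihood test was possible. Alternatives used edgeR 4.0.16 and DESeq2 1.42.0 in R 4.3.3 for scaling only.

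Genes and lists were chosen with earlier results of these data known. Named genes are those that reached 10 sense counts in each replicate, filled up to 10 by mean CPM among genes with a count in both replicates. Genes just above and below the bar, the known mirtrons Mir877, Mir1224 and Mir702, and the 3 most abundant other rows with both ends at splice sites are also named.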

Additional observations from a re-analysis of the deposited data

How the results depend on the processing

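The number of detected genes followed the bar: 23 at 3 counts in both replicates, 77 at 1 count and 0 at 100 counts, with 1 among genes with both ends at splice sites, and 4 to 6 in single replicates. Counting irrespective of strand and leaving out the 3 genes that share sequence could not change it, because the genes had 0 antisense counts and those 3 had at most 2 counts. Requiring a count in both replicates lowered the number of counted genes from 124 to 77, and single replicates gave 100 to 101. The summed level was 39.7 CPM with all reads as the denominator, 65.5 CPM without Mir6944, and 79.0 to 90.3 CPM in single replicates. With no count minimum 2 genes differed between replicates. For rows with at least 10 counts in both replicates, edgeR and DESeq2 scaling both gave 0, the same as the main result. These scalings were not tried without the minimum. The replicate test was not refitted without a replicate, since 1 library leaves no difference. A splice site at the 3′ end was found for 164 genes at an exact match with no base outside the intron (Mir7082, which reaches into an exon, drops out) and 173 within 10 bases (main 166), and at both ends for 14 and 18 (main 15). Further alternatives were chosen after seeing the data. For the CPM of 15 named genes under other scalings or irrespective of strand, and for the counts per gene with both ends at splice sites, 44 of 46 values stayed within 1 SD. The exceptions were Mir6944 irrespective of strand, at 18.5 CPM, and the counts per gene with both ends at splice sites, which fell to 2.11 without Mir6944. With 2 replicates a single one always lies within 1 SD of the mean, so single-replicate values are no check, and Mir6923 was 0.194 CPM without replicate 1 and 3.28 CPM without replicate 2. No paired analysis was possible because there was only 1 group. Depth limits the block throughout, since most genes lay at 3 counts or fewer.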
